A study of Mus musculus with 12 samples.

Results

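The 8 genes described here mark or drive the epithelial-to-mesenchymal transition (EMT): the transcription factor genes Snai1, Snai2, Twist1, Zeb1 and Zeb2 and the mesenchymal genes Vim, Cdh2 and Fn1. They were taken by symbol from the count table of the series, which held all 8 among its 24421 gene symbols, and all 8 passed the filter on low counts that left 13281 genes. The RNA came from a line of mouse lung adenocarcinoma cells named KP, which carries Trp53flox/flox. The 4 groups were sgBACH1_siFEM1B (cells with a guide RNA against Bach1, CRISPR/Cas9 knockout, given siRNA against Fem1b for 48 h), sgBACH1_siCTRL (the same knockout cells with control siRNA), sgCTRL_siFEM1B (cells with a control guide and FEM1B siRNA) and sgCTRL_siCTRL (control guide, control siRNA). Each group had 3 libraries, which the design text calls biological replicates, and every group came from this KP genotype. The labels name 1 knockout line and 1 control line, so that the guide and the line cannot be told apart in any comparison between them. BACH1 represses transcription and binds heme, and FEM1B is the substrate receptor of a CUL2 ubiquitin ligase that, by the title of the series, targets BACH1 for degradation.

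In EMT, epithelial cells lose their junctions and polarity and take on the shape and motility of mesenchymal cells, a change linked to invasion in carcinomas of the lung. SNAI1, SNAI2 (also called Slug), ZEB1 and ZEB2 are zinc-finger repressors that bind E-boxes with the core CACCTG in the promoters of junction and polarity genes, among them that of E-cadherin (Cdh1). TWIST1 is a basic helix-loop-helix factor that also binds E-boxes and can activate mesenchymal genes. Vimentin (Vim) is an intermediate filament protein, N-cadherin (Cdh2) an adhesion receptor of mesenchymal and neural cells, and fibronectin (Fn1) a matrix protein bound by integrins.

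Because the factors act through E-boxes, the promoters of 3 factor genes and of 2 epithelial genes that changed with FEM1B siRNA are shown. Each is the 250 bases before a start of the gene listed by RefSeq, the first listed unless stated, on GRCm38.p6, written 5′ to 3′ on the gene's own strand, with CACCTG or its reverse complement CAGGTG in capitals. For Zeb2 the window of an inner start is added, in which the capitals mark TGAGTCA or its reverse complement TGACTCA, the core letters that BACH1 and AP-1 factors both recognise. The windows are chr2:167537945-167538194 on the plus strand for Snai1, chr12:33957421-33957670 on the plus strand for Twist1, and chr2:45117443-45117692 and, for the inner start, chr2:45110278-45110527 on the minus strand for Zeb2. The windows of the epithelial genes are chr17:57061951-57062200 on the plus strand for Crb3, which builds the apical polarity complex, and chr11:100397791-100398040 on the minus strand for Jup, the junction protein plakoglobin.
Snai1 promoter: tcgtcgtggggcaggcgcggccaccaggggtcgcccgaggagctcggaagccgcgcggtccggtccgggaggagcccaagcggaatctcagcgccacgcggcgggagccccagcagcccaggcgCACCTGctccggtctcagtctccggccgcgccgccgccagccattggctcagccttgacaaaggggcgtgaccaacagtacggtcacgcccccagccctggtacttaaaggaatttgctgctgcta
Twist1 promoter: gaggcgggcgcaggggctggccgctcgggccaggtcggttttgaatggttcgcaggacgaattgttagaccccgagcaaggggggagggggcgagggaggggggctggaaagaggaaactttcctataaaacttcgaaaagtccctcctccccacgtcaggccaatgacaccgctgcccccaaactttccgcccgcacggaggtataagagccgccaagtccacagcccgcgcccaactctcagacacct
Zeb2 promoter: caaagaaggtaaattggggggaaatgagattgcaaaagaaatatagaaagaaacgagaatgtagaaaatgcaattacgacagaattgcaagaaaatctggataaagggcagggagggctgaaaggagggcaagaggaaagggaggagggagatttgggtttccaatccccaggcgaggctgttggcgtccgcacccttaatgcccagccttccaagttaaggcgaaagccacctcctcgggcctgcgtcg
Zeb2 promoter, inner start: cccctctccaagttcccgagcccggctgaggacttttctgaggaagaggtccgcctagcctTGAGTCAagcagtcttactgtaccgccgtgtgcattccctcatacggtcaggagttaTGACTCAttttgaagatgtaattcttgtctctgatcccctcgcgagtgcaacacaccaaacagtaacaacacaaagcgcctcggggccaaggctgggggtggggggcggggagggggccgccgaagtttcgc
Crb3 promoter: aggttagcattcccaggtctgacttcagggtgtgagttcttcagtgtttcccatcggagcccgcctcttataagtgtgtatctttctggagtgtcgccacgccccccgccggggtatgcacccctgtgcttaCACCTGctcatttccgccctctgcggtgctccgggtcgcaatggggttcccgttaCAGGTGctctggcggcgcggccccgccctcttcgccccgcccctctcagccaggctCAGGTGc
Jup promoter: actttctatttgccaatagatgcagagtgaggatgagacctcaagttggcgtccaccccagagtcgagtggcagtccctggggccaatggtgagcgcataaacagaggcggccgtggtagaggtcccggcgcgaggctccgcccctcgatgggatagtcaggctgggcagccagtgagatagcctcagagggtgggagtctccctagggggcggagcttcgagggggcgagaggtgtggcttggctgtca
Snai1 held 1 E-box, whose first base lies at position -126 from the start, and Crb3 held 3, at -118, -63 and -7, while neither form stood in the windows of Twist1, Zeb2 or Jup. Of all 32817 promoter windows of this length, 17.2% held at least 1 such E-box on either strand. RefSeq promoter entries were matched for 4 of the 8 genes (Snai1, Twist1, Zeb2 and Vim), with 7 windows, of which the Snai1 window alone held an E-box. For the 28 genes of an epithelial list described further on, 19 matched with 26 windows, of which 13 (50%) held an E-box, and windows of 1 gene with several starts overlap. As that list was chosen from genes described as repressed in EMT, this share is no result of these data. The core TGAGTCA stood in 1 of the 7 windows of the 8 genes (the inner Zeb2 start, with 2 copies), in 2 of the 26 epithelial windows and in 4.46% of all windows.

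Levels are given as CPM, the count as a share of the library's TMM-scaled total on the usual CPM scale, as mean ± SD with n = 3 libraries. Differences are log2 fold changes with their standard error (SE) from edgeR's quasi-likelihood test on all 12 libraries, and calls were made at p under 0.05 after Benjamini-Hochberg adjustment over the 13281 genes. Totals ranged from 16539168 to 22196999 counts per library. Fem1b averaged 49.0 ± 4.71 CPM in sgBACH1_siFEM1B and 139 ± 2.75 CPM in sgBACH1_siCTRL, and 51.7 ± 7.78 CPM in sgCTRL_siFEM1B and 163 ± 5.15 CPM in sgCTRL_siCTRL, so that its fall with siRNA was 1.51 ± 0.0846 (adjusted p = 1.66e-10) and 1.66 ± 0.0838 (adjusted p = 2.77e-11) on the log2 scale. Bach1 RNA averaged 39.9 ± 0.601 CPM in sgBACH1_siFEM1B and 41.3 ± 3.25 CPM in sgCTRL_siFEM1B (adjusted p = 0.575). Under control siRNA it averaged 29.5 ± 1.72 CPM in sgBACH1_siCTRL and 31.4 ± 2.04 CPM in sgCTRL_siCTRL (adjusted p = 0.344). A count over the whole gene does not check an edit that leaves the transcript in place. Bach1 RNA was higher with FEM1B siRNA by 0.44 ± 0.0768 in knockout cells (adjusted p = 0.000133) and by 0.40 ± 0.0757 in control-guide cells (adjusted p = 0.000242). The alveolar type 2 markers summed to 173 to 204 CPM over the libraries, nearly all from Abca3 and Etv5, and 3 of those 8 genes (Sftpa1, Sftpd and Nkx2-1) had no count in any library. The surfactant genes Sftpb and Sftpc averaged at most 0.341 and 0.0162 CPM in any group. Keratins of simple epithelia were abundant, Krt8 averaging 2059 to 2155 CPM over the groups. Other epithelial genes differed widely in level. Cdh1 averaged 321 to 645 CPM and Epcam 0.0314 to 1.525 CPM over the groups, and Cldn1 and Esrp1 had no count in any library. Summed markers of fibroblasts (9 genes) were 9.55 to 11.2 CPM in sgBACH1_siFEM1B, 8.63 to 10.7 CPM in sgBACH1_siCTRL, 18.4 to 21.7 CPM in sgCTRL_siFEM1B and 23.3 to 25.2 CPM in sgCTRL_siCTRL, mostly from Col1a1, with 5, 4, 1 and 2 of the 9 at 0 in the groups in this order. Summed markers of leukocytes (8 genes) were 8.57 to 11.2, 5.49 to 6.1, 21.5 to 30.3 and 7.64 to 9.7 CPM in the same order, mostly from Cd68, with 3, 4, 3 and 4 of the 8 at 0. The part of either in the results was not tested. Sums over the libraries were 1.8 to 5.2 CPM for smooth muscle and pericytes, 0.299 to 2.14 CPM for endothelium and 0.162 to 1.46 CPM for airway epithelium. In all these bulk samples, fewer cells of a kind and less RNA per cell cannot be told apart.

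The 8 genes differed widely in level. Scaled to the length of their exons (the union of GENCODE M21 exons), the order in sgCTRL_siCTRL was Vim, Fn1, Snai2, Cdh2, Zeb1, Zeb2, Twist1 and Snai1. Vim stood at 1100 CPM per kilobase, Fn1 at 192 and Snai2 at 25.1. Cdh2 followed at 7.51 and Zeb1 at 6.87 CPM per kilobase, without overlap between their libraries. Zeb2 at 1.84 and Twist1 at 1.59 CPM per kilobase overlapped, and Snai1 was lowest at 0.903. With the length of the longest principal transcript in place of the exon union, Zeb2 stood at 4.03 CPM per kilobase against the same 1.59 for Twist1, and Cdh2 at 12.5 and Zeb1 at 12.2. In both knockout groups Twist1 stood above Cdh2 and Zeb1 per length, at 11.2 CPM per kilobase in sgBACH1_siFEM1B and 11.8 in sgBACH1_siCTRL, on the exon-union scale.

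**Figure D1:**
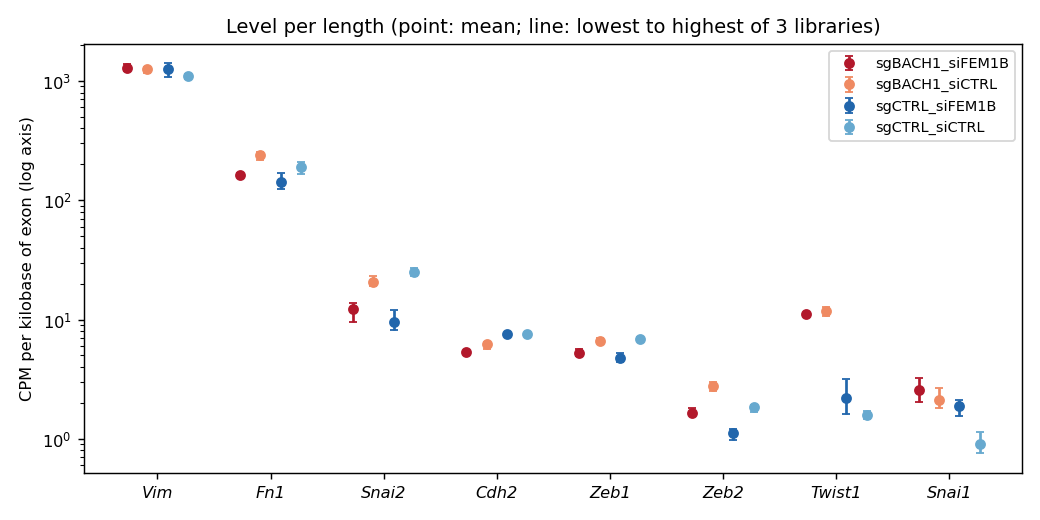
CPM per kilobase of exon (log axis) of the 8 genes in the 4 groups; points are means and lines run from the lowest to the highest of 3 libraries. Vim and Fn1 lie above the 5 factor genes in all 4 groups, and Twist1 stands at 11.2 and 11.8 CPM per kilobase in sgBACH1_siFEM1B and sgBACH1_siCTRL, against 2.18 in sgCTRL_siFEM1B and 1.59 in sgCTRL_siCTRL.

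FEM1B siRNA lowered the repressor genes Snai2, Zeb1 and Zeb2 and the matrix gene Fn1 in both lines, by 0.31 to 0.75 in knockout cells and by 0.44 to 1.38 in control-guide cells on the log2 scale. In knockout cells 5 of the 8 genes fell and none rose (sgBACH1_siFEM1B against sgBACH1_siCTRL), where 41.7% of all genes tested were called and 19.8% were called lower. In control-guide cells 4 fell and 2 (Snai1 and Vim) rose (sgCTRL_siFEM1B against sgCTRL_siCTRL), where 45.0% of all genes were called, 22.9% lower and 22.1% higher. The median log2 change of the 8 genes was -0.27 in knockout cells and -0.21 in control-guide cells, beside 0.02 and 0.00 over all genes.

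In knockout cells Twist1 was more than 5-fold and Zeb2 about 1.5-fold higher than in control-guide cells, and Cdh2 was lower, under either siRNA. With chromosome medians removed, Cdh2 under control siRNA was no longer called (-0.10, adjusted p = 0.183). Rises and falls with knockout name this difference between the lines, in which guide and line cannot be told apart. Under FEM1B siRNA (sgBACH1_siFEM1B against sgCTRL_siFEM1B) 3 of the 8 genes were called higher and 1 lower, with 54.6% of all genes called, 28.2% higher and 26.4% lower. Under control siRNA (sgBACH1_siCTRL against sgCTRL_siCTRL) 5 were called higher (Snai1, Twist1, Zeb2, Vim and Fn1) and 1 lower, with 50.5% of all genes called, 24.2% higher and 26.3% lower. With this many genes called in the whole table, the counts among the 8 genes say little in themselves, and the values of the single genes carry the account. The median of the 8 was 0.28 under FEM1B siRNA and 0.26 under control siRNA, beside 0.01 and -0.02 over all genes. The 4 comparisons share groups: sgCTRL_siCTRL, for example, is the baseline of both the knockout comparison under control siRNA and the siRNA comparison in control-guide cells.

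**Figure D2:**
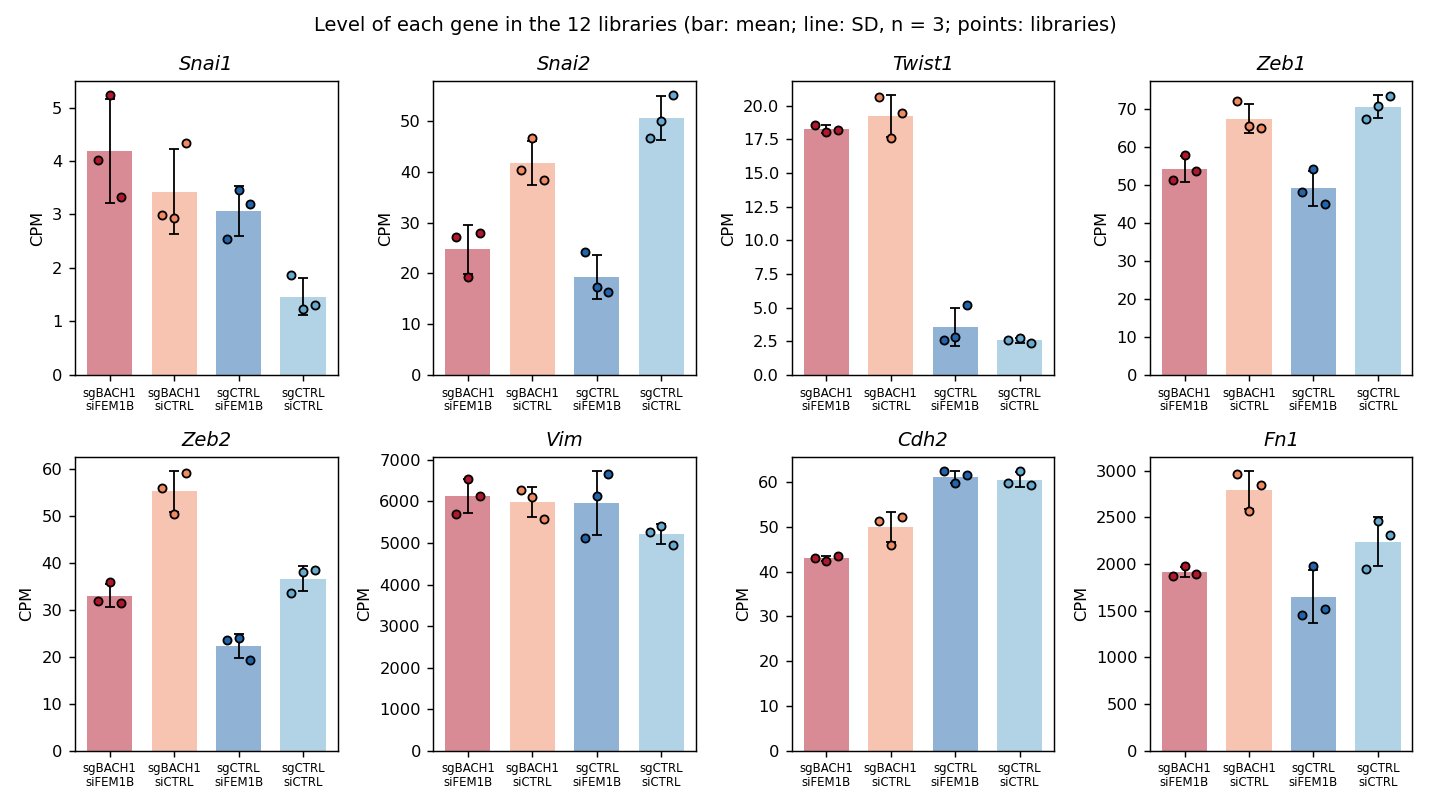
CPM of each of the 8 genes in the 4 groups; bars are means, lines the SD of 3 libraries and points the libraries, each panel on its own axis from 0. Snai2, Zeb1, Zeb2 and Fn1 have a lower mean with FEM1B siRNA than with control siRNA in both lines, and Twist1 is above 17 CPM in all 6 knockout libraries and below 6 CPM in all 6 control-guide libraries.

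Snai2 (chr16:14705852-14709395, plus strand, RefSeq on GRCm38.p6, as for the spans below) had the largest fall of the 8 with FEM1B siRNA in control-guide cells, and a fall as large as that of Zeb2 in knockout cells. It stood at 27.2, 19.3 and 27.9 CPM in sgBACH1_siFEM1B, against 40.3, 46.7 and 38.5 CPM in sgBACH1_siCTRL. In control-guide cells it stood at 24.3, 17.3 and 16.4 CPM in sgCTRL_siFEM1B, against 46.6, 50.05 and 55.2 CPM in sgCTRL_siCTRL. Every library with FEM1B siRNA lay below every library with control siRNA, within each line and across them. Snai2 fell by 0.75 ± 0.133 in knockout cells (adjusted p = 0.000144) and by 1.38 ± 0.134 in control-guide cells (adjusted p = 1.03e-07), on the log2 scale. Knockout cells were called higher than control-guide cells under FEM1B siRNA, by 0.35 ± 0.141 (adjusted p = 0.0398), with overlapping libraries. That call was lost by DESeq2 (adjusted p = 0.115), in a fit of the 6 libraries compared (0.0751), and without replicate 1 or 3 of sgBACH1_siFEM1B (0.159 and 0.171) or replicate 2 or 3 of sgCTRL_siFEM1B (0.159 and 0.182). Under control siRNA the difference was -0.27 ± 0.126 (adjusted p = 0.0764). The fall with siRNA differed between the lines by 0.63 ± 0.189 (the change in knockout cells minus that in control-guide cells, adjusted p = 0.0528), which did not pass the threshold.

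Zeb2 (chr2:44983512-45117442, minus strand) moved with both factors of the design. It stood at 31.9, 35.9 and 31.4 CPM in sgBACH1_siFEM1B and at 56.1, 50.5 and 59.3 CPM in sgBACH1_siCTRL. In control-guide cells it stood at 23.6, 23.9 and 19.4 CPM in sgCTRL_siFEM1B and at 33.6, 38.1 and 38.5 CPM in sgCTRL_siCTRL. The groups overlapped in none of the 4 comparisons, and the knockout cells with FEM1B siRNA lay in the range of or below the control-guide cells with control siRNA. FEM1B siRNA lowered Zeb2 by 0.74 ± 0.0878 in knockout cells (adjusted p = 1.65e-06) and by 0.71 ± 0.0915 in control-guide cells (adjusted p = 3.4e-06). Zeb2 was higher in knockout cells by 0.56 ± 0.0928 under FEM1B siRNA (adjusted p = 3.68e-05) and by 0.59 ± 0.0864 under control siRNA (adjusted p = 1.02e-05). The difference of the siRNA effects between the lines was -0.03 ± 0.127 (adjusted p = 0.929). An opposite-strand gene, Zeb2os, overlaps 3.27% of the exon bases of Zeb2, and had 4 to 18 counts per library, against 358 to 1283 for Zeb2.

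Zeb1 (chromosome 18, plus strand) fell with FEM1B siRNA and was not called between the lines. It stood at 51.1, 57.8 and 53.7 CPM in sgBACH1_siFEM1B, against 72.0, 65.4 and 64.9 CPM in sgBACH1_siCTRL. In control-guide cells it stood at 48.2, 54.1 and 45.1 CPM in sgCTRL_siFEM1B, against 67.3, 70.9 and 73.4 CPM in sgCTRL_siCTRL. As for Snai2, all 6 libraries with FEM1B siRNA lay below all 6 with control siRNA. The fall was 0.31 ± 0.0729 in knockout cells (adjusted p = 0.00169) and 0.52 ± 0.0727 in control-guide cells (adjusted p = 9.29e-06). Knockout against control-guide cells gave 0.14 ± 0.074 under FEM1B siRNA (adjusted p = 0.114) and -0.07 ± 0.0715 under control siRNA (adjusted p = 0.469). The first of these was called without replicate 2 of sgCTRL_siFEM1B (0.22, adjusted p = 0.028) and once the median change of chromosome 18 was removed (0.31, adjusted p = 0.00181). Without replicate 3 of sgCTRL_siFEM1B its adjusted p was 0.452. The opposite-strand gene Gm10125, which overlaps 1.93% of the exon bases of Zeb1, had 0 to 4 counts per library.

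Twist1 (chr12:33957671-33959831, plus strand) had the largest change of the 8 with BACH1 knockout. It stood at 18.6, 18.02 and 18.2 CPM in sgBACH1_siFEM1B, against 2.63, 2.83 and 5.20 CPM in sgCTRL_siFEM1B. Under control siRNA it stood at 20.7, 17.6 and 19.5 CPM in sgBACH1_siCTRL, against 2.59, 2.78 and 2.41 CPM in sgCTRL_siCTRL. The knockout libraries lay far above all control-guide libraries, among which replicate 3 of sgCTRL_siFEM1B was the highest. The rise was 2.38 ± 0.167 under FEM1B siRNA (5.21-fold, adjusted p = 3.75e-10) and 2.89 ± 0.173 under control siRNA (7.41-fold, adjusted p = 2.9e-11), while the median gene of chromosome 12 differed by -0.25 and -0.28. FEM1B siRNA gave -0.08 ± 0.138 in knockout cells (adjusted p = 0.696) and 0.43 ± 0.209 in control-guide cells (adjusted p = 0.102). Without replicate 1 of sgCTRL_siFEM1B the last value was 0.61 (adjusted p = 0.0222), and without replicate 3 it was 0.09 (adjusted p = 0.733).

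Snai1 (chr2:167538195-167542814, plus strand) had the lowest mean CPM of the 8 in each group, with 26 to 97 counts per library; per kilobase of exon union it averaged above Zeb2 in sgBACH1_siFEM1B (2.59 against 1.66) and in sgCTRL_siFEM1B (1.89 against 1.12), an order that turned round with the length of the longest principal transcript (3.62 and 2.45 for Zeb2). It stood at 4.02, 5.23 and 3.32 CPM in sgBACH1_siFEM1B and at 2.998, 2.94 and 4.34 CPM in sgBACH1_siCTRL. In control-guide cells it stood at 2.54, 3.46 and 3.20 CPM in sgCTRL_siFEM1B, against 1.86, 1.22 and 1.30 CPM in sgCTRL_siCTRL. The 3 libraries of sgCTRL_siCTRL lay below the other 9. Snai1 was higher in knockout cells under control siRNA by 1.22 ± 0.25 (adjusted p = 0.000394), and with FEM1B siRNA in control-guide cells by 1.05 ± 0.254 (adjusted p = 0.00209). Both of these values are set against sgCTRL_siCTRL. The knockout difference under FEM1B siRNA was 0.46 ± 0.224 (adjusted p = 0.0898), and was called without replicate 3 of sgBACH1_siFEM1B (0.59, adjusted p = 0.0457). Without replicate 2 of that group its adjusted p was 0.363. The siRNA difference in knockout cells was 0.29 ± 0.221 (adjusted p = 0.314; 0.10 to 0.50 without 1 library at a time), and the difference of the siRNA effects was -0.77 ± 0.337 (adjusted p = 0.176). The direction of Snai1 with FEM1B siRNA was thus opposite to that of Snai2 in control-guide cells.

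Fn1 (chr1:71585473-71653280, minus strand), the matrix gene, had log2 changes of the same sign as Zeb2 in each of the 4 comparisons. It stood at 1869, 1975 and 1889 CPM in sgBACH1_siFEM1B and at 2964, 2564 and 2849 CPM in sgBACH1_siCTRL. In control-guide cells it stood at 1450, 1973 and 1521 CPM in sgCTRL_siFEM1B and at 1944, 2462 and 2313 CPM in sgCTRL_siCTRL. The siRNA groups did not overlap in knockout cells, and in control-guide cells replicate 2 of sgCTRL_siFEM1B lay above replicate 1 of sgCTRL_siCTRL. The fall with FEM1B siRNA was 0.55 ± 0.0935 in knockout cells (adjusted p = 0.000101) and 0.44 ± 0.0934 in control-guide cells (adjusted p = 0.000678). Knockout cells were higher under control siRNA by 0.32 ± 0.0933 (adjusted p = 0.00763), a call lost without replicate 1 of sgCTRL_siCTRL (0.22, adjusted p = 0.0592). Under FEM1B siRNA the value was 0.21 ± 0.0933 (adjusted p = 0.0594), which was called without replicate 2 of sgCTRL_siFEM1B (0.36, adjusted p = 0.00118) or replicate 1 of sgCTRL_siCTRL (0.21, adjusted p = 0.0395). Without replicate 1 of sgCTRL_siFEM1B the adjusted p was 0.269. An opposite-strand gene, Apol7d, overlaps 2.5% of the exon bases of Fn1 and had 14 to 35 counts per library.

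Cdh2 (chromosome 18, minus strand), which encodes N-cadherin, was the one gene of the 8 called lower in knockout cells. It stood at 43.0, 42.4 and 43.6 CPM in sgBACH1_siFEM1B, against 62.4, 59.7 and 61.5 CPM in sgCTRL_siFEM1B. Under control siRNA it stood at 51.3, 46.0 and 52.2 CPM in sgBACH1_siCTRL, against 59.9, 62.4 and 59.4 CPM in sgCTRL_siCTRL. All 6 knockout libraries lay below all 6 control-guide libraries. The difference was -0.51 ± 0.0628 under FEM1B siRNA (adjusted p = 1.09e-06) and -0.28 ± 0.0619 under control siRNA (adjusted p = 0.000824). The median gene of chromosome 18 differed by -0.17 and -0.18 in these comparisons, and with the medians of the chromosomes removed the values were -0.34 (adjusted p = 0.000142) and -0.10 (adjusted p = 0.183). FEM1B siRNA lowered Cdh2 by 0.21 ± 0.0634 in knockout cells (adjusted p = 0.0101), a call lost without replicate 3 of sgBACH1_siCTRL (-0.18, adjusted p = 0.0603), and gave 0.01 ± 0.0612 in control-guide cells (adjusted p = 0.869).

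Vim (chr2:13574311-13582826, plus strand), the most abundant of the 8, had log2 changes of at most 0.20. It averaged 6126 ± 410 CPM in sgBACH1_siFEM1B, 5987 ± 365 CPM in sgBACH1_siCTRL, 5968 ± 773 CPM in sgCTRL_siFEM1B and 5215 ± 231 CPM in sgCTRL_siCTRL. It was called higher in knockout cells under control siRNA, by 0.20 ± 0.0752 (adjusted p = 0.033), and with FEM1B siRNA in control-guide cells, by 0.19 ± 0.0752 (adjusted p = 0.041). The first call was lost without any of 4 libraries, with adjusted p up to 0.128 (replicate 1 or 2 of sgBACH1_siCTRL, replicate 1 or 3 of sgCTRL_siCTRL). The other was lost in the fit of the 6 libraries compared (adjusted p = 0.0554) and without any of 5 libraries, with adjusted p up to 0.164 (replicate 3 of sgBACH1_siFEM1B, replicate 2 or 3 of sgCTRL_siFEM1B, replicate 1 or 3 of sgCTRL_siCTRL). The knockout difference was 0.04 ± 0.0752 under FEM1B siRNA (adjusted p = 0.693) and the siRNA difference 0.03 ± 0.0752 in knockout cells (adjusted p = 0.756).

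**Figure D3:**
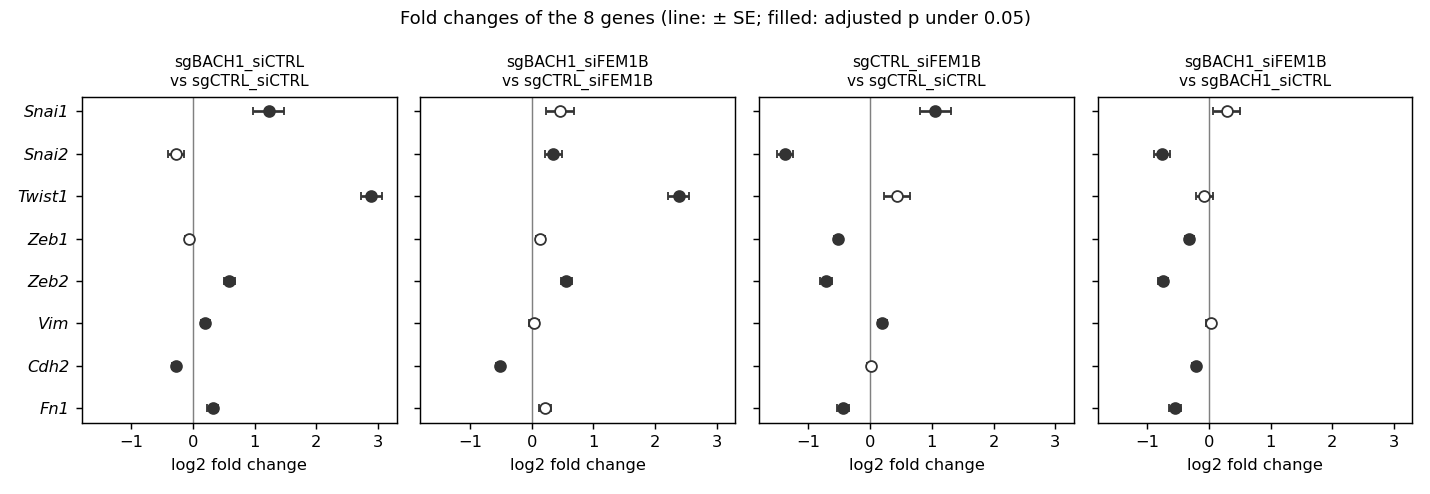
Log2 fold change of each of the 8 genes in the 4 comparisons, with SE; filled points passed an adjusted p of 0.05. Twist1 stands apart in both knockout comparisons (2.89 and 2.38), and Snai2, Zeb1, Zeb2 and Fn1 lie left of 0 in both siRNA comparisons.

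Whether the siRNA effect differed between the lines was tested for each of the 8 genes. None was called by edgeR, where 6.08% of all genes were, and none by DESeq2; 3 of the 8 (Snai1, Snai2 and Cdh2) had an unadjusted p under 0.05. Libraries of the groups compared did not overlap for 5 of the 8 genes with FEM1B siRNA in knockout cells and for 4 in control-guide cells, beside 51.5% and 52.1% of all genes. Between the lines they did not overlap for 3 genes under FEM1B siRNA and 6 under control siRNA, beside 57.0% and 60.3% of all genes.

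Beside the fall of Snai2, Zeb1 and Zeb2, 13 or 14 of 22 epithelial genes (of junctions, polarity, keratins, a mucin, a laminin and epithelial regulators) were called higher with FEM1B siRNA. Of 28 listed genes described as repressed in EMT, 22 passed the filter. The list was chosen with earlier results of these data known, so its counts are given as a description. With FEM1B siRNA 14 of the 22 were higher and none lower in knockout cells, where 21.9% of all genes were called higher and 19.8% lower. In control-guide cells 13 were higher and 2 lower, where 22.1% of all genes were called higher and 22.9% lower; without replicate 1 of sgCTRL_siCTRL 1 was lower. Their median log2 change was 0.45 and 0.37 (0.43 without Epcam, which had 2 counts in each control-guide group), beside 0.02 and 0.00 over all genes. Across the alternatives tried, 12 to 14 genes in knockout cells and 10 to 14 in control-guide cells were called higher. The genes named here are those with the smallest p in a comparison.

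Crb3, the apical polarity gene, averaged 4.40 ± 1.04 CPM in sgBACH1_siFEM1B against 0.236 ± 0.16 CPM in sgBACH1_siCTRL, and 8.10 ± 1.66 CPM in sgCTRL_siFEM1B against 0.415 ± 0.172 CPM in sgCTRL_siCTRL. It rose by 4.22 ± 0.371 in knockout cells (adjusted p = 4.44e-08) and 4.27 ± 0.307 in control-guide cells (adjusted p = 2.63e-09), against totals of only 14 and 26 counts over the 3 libraries of the control siRNA groups. Llgl2, a basolateral polarity gene, rose by 1.04 ± 0.0867 and 1.29 ± 0.0828 in the 2 lines in the same order. Pkp3, a plakophilin of desmosomes, rose by 1.32 ± 0.13 and 1.18 ± 0.123, and Marveld2, a protein of tricellular tight junctions, by 1.82 ± 0.179 and 1.56 ± 0.193. Jup rose by 0.69 ± 0.0499 and 0.51 ± 0.0492. All 8 of these values for Llgl2, Pkp3, Marveld2 and Jup passed the test, with adjusted p of at most 2.26e-06. Genes with an E-box were among those that rose (Crb3), those not called (Krt8, 0.01 ± 0.0569 and -0.06 ± 0.0569) and those that fell. Krt7, with an E-box at -44, fell in control-guide cells (-0.27 ± 0.053, adjusted p = 0.000364) and rose in knockout cells (0.39 ± 0.0536, adjusted p = 9.31e-06). Krt18, with an E-box at -214, fell in control-guide cells (-0.18 ± 0.0555, adjusted p = 0.0133) and was not called in knockout cells (-0.05 ± 0.0555, adjusted p = 0.486). No E-box stood in the windows of Jup or Marveld2, which rose. Whether E-boxes had a part in these changes was not tested.

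**Figure D4:**
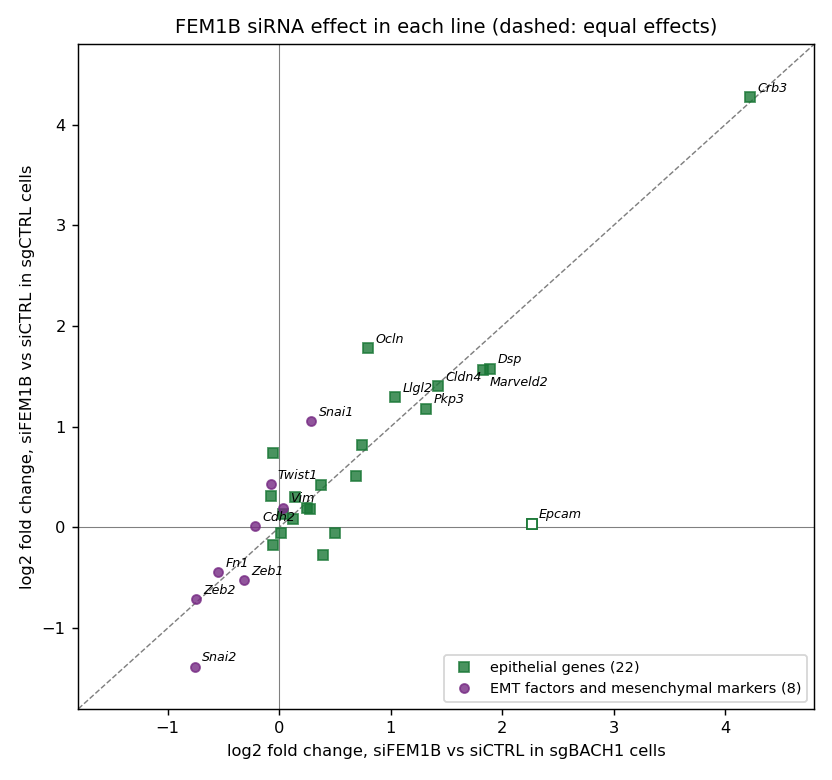
Log2 fold change with FEM1B siRNA in sgBACH1 cells (x axis) and in sgCTRL cells (y axis) for the 8 genes (circles) and 22 epithelial genes (squares); the open square, Epcam, had 2 counts in each control-guide group. Snai2, Zeb1, Zeb2 and Fn1 lie below 0 on both axes and Crb3 lies at 4.22 and 4.27.

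With knockout 7 of the 22 genes were higher and 8 lower under FEM1B siRNA, beside 28.2% and 26.4% of all genes, and 6 were higher and 9 lower under control siRNA, beside 24.2% and 26.3% of all genes (medians -0.12 and -0.12). The counts of higher genes were about the share over all genes, and those of lower genes (8 and 9 of 22) lay above it. The 9 ranged from 6 to 10 over the alternatives. Cdh1, the E-cadherin gene that SNAI and ZEB factors are known to repress, was higher in the knockout cells in which Zeb2 and Twist1 were higher. It averaged 615 ± 39.5 CPM in sgBACH1_siFEM1B against 400 ± 27 CPM in sgCTRL_siFEM1B (0.62 ± 0.0595, adjusted p = 3.7e-08) and 645 ± 30.1 CPM in sgBACH1_siCTRL against 321 ± 11.4 CPM in sgCTRL_siCTRL (1.004 ± 0.0599, adjusted p = 2.8e-11). With FEM1B siRNA Cdh1 rose by 0.32 ± 0.0596 in control-guide cells (adjusted p = 0.000241) and gave -0.07 ± 0.0591 in knockout cells (adjusted p = 0.374). Krt7, a keratin of simple epithelia, fell with knockout by 1.30 ± 0.0541 under FEM1B siRNA and by 1.96 ± 0.0551 under control siRNA.

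Other genes of the EMT programme were called in both directions, as were genes over the whole table. The counts that follow stand beside 54.6% of all genes called with knockout under FEM1B siRNA and 50.5% under control siRNA, and beside 41.7% called with FEM1B siRNA in knockout cells and 45.0% in control-guide cells, so that a list with about that share called is not set apart by its count. Of 23 further EMT factor genes, of which 20 passed the filter, 11 were higher and 5 lower with knockout under FEM1B siRNA and 7 higher and 6 lower under control siRNA (medians 0.18 and 0.05); with chromosome medians removed, 7 were higher under FEM1B siRNA. Id1, Id2 and Id3, which encode inhibitors of basic helix-loop-helix factors, were higher in knockout cells together with Twist1. Id3 averaged 161 ± 3.75 CPM in sgBACH1_siFEM1B against 21.7 ± 3.12 CPM in sgCTRL_siFEM1B and 142 ± 9.2 CPM in sgBACH1_siCTRL against 15.6 ± 1.95 CPM in sgCTRL_siCTRL (2.90 ± 0.0893 and 3.18 ± 0.0922). With FEM1B siRNA 3 of the 20 were higher and 4 lower in knockout cells, and 4 higher and 7 lower in control-guide cells (medians 0.04 and -0.07), beside 41.7% and 45.0% of all genes called. The lower count in knockout cells was 2 without replicate 1 of sgBACH1_siFEM1B or replicate 1 or 2 of sgBACH1_siCTRL, and 7 without replicate 3 of sgCTRL_siFEM1B or in the fit of the 6 libraries compared. The higher count was 5 in knockout cells without replicate 2 of sgBACH1_siCTRL or with library totals only, and 2 in control-guide cells without replicate 1 of sgCTRL_siCTRL. Sox4 fell by 0.82 ± 0.0674 and 0.63 ± 0.0661 in the 2 lines in the same order, and Ets1 by 0.53 ± 0.0653 and 0.56 ± 0.0656.

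Of 26 further mesenchymal genes, 19 passed the filter. With FEM1B siRNA 6 rose and 6 fell in knockout cells, and 8 rose and 5 fell in control-guide cells (medians -0.06 and 0.19), beside 41.7% and 45.0% of all genes called. The collagen gene Col6a1 rose by 0.45 ± 0.0512 and 0.52 ± 0.0503, against the direction of Fn1, and the receptor kinase gene Axl fell by 0.41 ± 0.0552 and 0.35 ± 0.0552. With knockout 6 rose and 8 fell under FEM1B siRNA, and 6 rose and 7 fell under control siRNA (medians 0.04 and -0.08), beside 54.6% and 50.5% of all genes called. Tpm1 (tropomyosin) rose by 0.99 ± 0.0474 and 0.93 ± 0.0473.

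Among 9 genes for receptors and matrix partners of fibronectin that passed the filter (of 11 listed), 2 rose and 2 fell with FEM1B siRNA in knockout cells and 6 rose and 1 fell in control-guide cells (medians -0.01 and 0.19), beside 41.7% and 45.0% of all genes called. The 6 became 3 without replicate 2 of sgCTRL_siFEM1B or replicate 1 or 3 of sgCTRL_siCTRL, and the 1 became 0 without the last of these. The 2 that rose in knockout cells became 1 without replicate 2 of sgBACH1_siFEM1B or replicate 1 of sgBACH1_siCTRL. With knockout 2 rose and 6 fell under FEM1B siRNA, and 4 rose and 3 fell under control siRNA (medians -0.24 and -0.01), beside 54.6% and 50.5% of all genes called. Among them Itgb3, an integrin chain of fibronectin receptors, rose with knockout by 0.47 ± 0.076 and 0.81 ± 0.0748, and Col1a1 fell by 0.93 ± 0.104 and 1.42 ± 0.103. Of 9 partners of N-cadherin and vimentin (of 11 listed), 2 rose and 1 fell with FEM1B siRNA in knockout cells and 4 rose and 3 fell in control-guide cells (medians 0.01 and 0.17), beside the same shares of all genes as above. The 2 became 1 without replicate 2 of sgBACH1_siFEM1B or replicate 2 or 3 of sgBACH1_siCTRL, and the 3 that fell became 1 without replicate 3 of sgCTRL_siFEM1B or replicate 2 of sgCTRL_siCTRL, or with a minimum count of 30. With knockout 3 rose and 4 fell under FEM1B siRNA, and 3 rose and 3 fell under control siRNA (medians -0.16 and -0.08); with chromosome medians removed, 2 and 1 fell. Fgfr1, a receptor kinase that binds N-cadherin, rose with knockout by 2.31 ± 0.132 and 2.93 ± 0.137, opposite in direction to Cdh2.

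Of 20 genes of the TGF-beta, Notch and growth factor inputs to EMT (of 21 listed), 3 rose and 7 fell with FEM1B siRNA in each line (medians -0.19 and -0.13), where 41.7% of all genes were called in knockout cells and 45.0% in control-guide cells, 19.8% and 22.9% lower. Without replicate 3 of sgCTRL_siFEM1B 5 rose in control-guide cells. Among those that fell was Met, by 0.44 ± 0.0545 and 0.30 ± 0.0546. With knockout 7 rose and 8 fell under FEM1B siRNA, and 9 rose and 7 fell under control siRNA (medians -0.02 and 0.14), beside 54.6% and 50.5% of all genes called; with chromosome medians removed, 5 fell under FEM1B siRNA. The Notch ligand gene Jag1 rose by 1.40 ± 0.0776 and 1.23 ± 0.0762. Of 21 genes for corepressors and for enzymes that set the stability of SNAI and ZEB proteins, 3 rose and 8 fell with FEM1B siRNA in knockout cells and 5 rose and 6 fell in control-guide cells (medians -0.13 and -0.01), beside 41.7% and 45.0% of all genes called. The 8 ranged from 4 to 11 over the alternatives, with 4 without replicate 1 or 3 of sgBACH1_siFEM1B or replicate 1 or 3 of sgBACH1_siCTRL. The 3 became 1 without replicate 1 of sgBACH1_siFEM1B, and the 5 became 3 without replicate 1 of sgCTRL_siFEM1B. With knockout 5 rose and 4 fell under FEM1B siRNA, and 9 rose and 4 fell under control siRNA (medians 0.01 and 0.04), beside 54.6% and 50.5% of all genes called. With chromosome medians removed, 8 fell under FEM1B siRNA and 5 rose under control siRNA, and without replicate 3 of sgBACH1_siFEM1B 2 fell under FEM1B siRNA. Fbxl14, which encodes a ubiquitin ligase subunit that acts on SNAI1, fell with FEM1B siRNA by 0.31 ± 0.0607 and 0.31 ± 0.0612.

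Over the 12 libraries, the genes most like each of the 8 by Pearson's r of log2 CPM were named from 9641 genes, as a description, since libraries of 1 group share their treatment. Zeb2 was most like D15Ertd621e (r = 0.996), Ddb1 (0.985) and Smarcc1 (0.985). Among the genes most like Twist1 were Tspyl2 (0.988) and Igfbp7 (0.988), and Snai2 was most like Gars (0.983), Zfp239 (0.980) and Ddx56 (0.978). Zeb1 was most like Wipf1 (0.978), Dzip3 (0.961) and Ikbkg (0.958), and Cdh2 most like Zcchc11 (0.977), Ehd4 (0.977) and Ago3 (0.975). Fn1 was most like Efnb2 (0.965), Cav2 (0.963) and Tmed5 (0.962), and Snai1 most like Cep55 (0.959), Fgfr1op (0.954) and Xbp1 (0.952). Vim had the loosest match, to Epn1 (0.905), Gapdh (0.895) and Selenbp1 (0.873). No gene of the 8 was among the 3 closest to another of the 8. Snai1 could not be, as its average lay below the 3 log2 CPM needed to be among the genes searched.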

How the data were processed

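The deposited table holds raw whole-number counts per gene symbol, which the authors had not normalized, for 12 libraries prepared with a stranded mRNA kit, per the labels' protocols. Per the submitters' processing notes, mm10 (GRCm38) was the build and the tools included featureCounts 1.6.4 of Subread, DESeq2 1.26.0 and SAMtools 1.9. For the counting, neither annotation nor strand setting is known here (not given in the sources used here), so reads of a gene and its overlapping antisense gene may be mixed. All count columns were used.

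Genes were kept with filterByExpr (minimum count 10) and tested two-sided with the quasi-likelihood test of edgeR 4.0.16 (R 4.3.3): TMM factors (0.989 to 1.01), 1 model with a mean for each of 4 groups, 8 residual degrees of freedom, Benjamini-Hochberg adjustment over 13281 genes. The SE was computed as |log2 fold change| / sqrt(F). Unless another tool is named, p-values are from this test. The steps were tested on simulated data in which far fewer genes changed than were called here. That test does not check them at the shares called here. Alternatives were DESeq2 1.42.0, other scaling, other filters, a replicate block, the 6 libraries compared, the removal of chromosome medians and leaving out each library; the length alternative was chosen after seeing the data. Same-numbered libraries did not deviate together (correlations -0.115 to 0.0788 over 18 pairs), and no replicate pair was identical. Lengths and overlaps are from GENCODE M21, gene spans and promoters from RefSeq (GRCm38.p6).

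The 8 genes and the lists were chosen with earlier results of these data known. The rule named the 8 genes, Bach1 and Fem1b, up to 4 genes with the smallest p of each list in each comparison, and for each of the 8 the 3 genes most alike in log2 CPM (prior count 2) among genes averaging at least 3 log2 CPM. Epcam, Cldn1, Esrp1, Krt8, Krt18, Abca3 and Etv5 are named as checks. Some genes that the rule named, and part of the genotype, are not reported here; counts and medians of the lists cover all their genes. Promoter positions are counted from -1, the last base before the start.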

Additional observations from a re-analysis of the deposited data

Results flagged for a closer look

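None of the 8 genes was picked out as differing between the lines in its response to FEM1B siRNA. Of the genes in the lists around them, 15 were, by edgeR's test of the difference (the log2 siRNA effect in sgBACH1 cells minus that in sgCTRL cells), and their values follow with no account of a cause. Ctnnb1 differed by 0.49 (effects of 0.01 in sgBACH1 cells and -0.48 in sgCTRL cells, adjusted p = 0.00137). Hes1 differed by 0.56 (0.43 and -0.13, adjusted p = 0.00137), Tgm2 by 1.28 (1.68 and 0.40, adjusted p = 0.00137) and Krt7 by 0.66 (0.39 and -0.27, adjusted p = 5.97e-05). Snai3 differed by 1.34 (1.72 and 0.38, adjusted p = 0.0215), Ctbp1 by 0.29 (0.16 and -0.13, adjusted p = 0.0315) and Id2 by 0.34 (-0.15 and -0.49, adjusted p = 0.0497). In the other direction, Cd68 differed by -0.82 (0.76 and 1.58, adjusted p = 0.0268), Lamb3 by -0.79 (-0.05 and 0.74, adjusted p = 0.00715) and Smad7 by -0.64 (-0.24 and 0.39, adjusted p = 0.0185). Cdh1 differed by -0.38 (-0.07 and 0.32, adjusted p = 0.0121), Itgb1 by -0.34 (-0.19 and 0.15, adjusted p = 0.0119) and Tgfb1 by -0.30 (-0.02 and 0.29, adjusted p = 0.0225). Plaur differed by -0.27 (-0.01 and 0.26, adjusted p = 0.0387) and Suz12 by -0.27 (0.06 and 0.32, adjusted p = 0.0499). Id2 and Suz12 lie at the threshold.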

How the results depend on the processing

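The lower calls of Snai2, Zeb1, Zeb2 and Fn1 with FEM1B siRNA in both lines, and the higher calls of Twist1 and Zeb2 with knockout under both siRNAs, held under all 20 alternatives tried for each. With no filter on low counts, Snai2 was called with knockout under control siRNA (-0.28), Fn1 under FEM1B siRNA (0.21) and Snai2 in the difference between the lines (0.63), where 1 of the 8 genes and 1393 genes in all were called. In fits of the 6 libraries compared, Snai2 was called with knockout under control siRNA (-0.25), and lost with knockout under FEM1B siRNA (0.35), as was Vim with FEM1B siRNA in control-guide cells (0.20); DESeq2 also lost Snai2 with knockout under FEM1B siRNA (0.35). With chromosome medians removed, Zeb1 turned to 0.11 and Cdh2 weakened to -0.10 with knockout under control siRNA; under FEM1B siRNA 7 of the 8 were called, adding Snai1 (0.56), Zeb1 (0.31) and Fn1 (0.27). The replicate numbers share only a name; with a replicate block 603 genes were called in the difference between the lines, against 807 without it, and the block added the call of Fn1 with knockout under FEM1B siRNA (0.22) and changed no other call of the 8. The cause of these changes was not tested.

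Leaving out 1 library at a time gave, with knockout under control siRNA, -0.36 to -0.21 for Snai2, 0.16 to 0.25 for Vim and 0.22 to 0.39 for Fn1. With knockout under FEM1B siRNA it gave 0.27 to 0.59 for Snai1, 0.24 to 0.56 for Snai2, 0.070 to 0.22 for Zeb1, -0.061 to 0.11 for Vim, 0.13 to 0.36 for Fn1 and -0.20 to 0.015 for Fem1b. With FEM1B siRNA in control-guide cells it gave 0.087 to 0.61 for Twist1 and 0.12 to 0.29 for Vim, and in knockout cells 0.10 to 0.50 for Snai1, -0.016 to 0.081 for Vim and -0.27 to -0.18 for Cdh2. In the difference between the lines it gave 297 to 1859 genes and 0 to 1 of the 8 called (Snai2, without replicate 2 of sgBACH1_siFEM1B, replicate 2 of sgBACH1_siCTRL or replicate 1 of sgCTRL_siFEM1B), with 0.50 to 0.83 for Snai2, -0.14 to 0.034 for Zeb2, -0.19 to 0.045 for Fn1 and -0.052 to 0.085 for Bach1.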
